A study of Homo sapiens
Mus musculus with 2 samples.

Results

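Oxidative phosphorylation genes were followed through the cell types of the mouse colonic epithelium and between 2 libraries of the same tissue. Genes were chosen by symbol alone, as the subunits of the respiratory complexes I to IV and of the ATP synthase (complex V), and 105 of the 25504 genes listed for both libraries matched. Of these, 83 are nuclear-encoded subunits, 13 are encoded in mitochondrial DNA, and 9 are factors that carry a matching name without being subunits (Ndufaf1 to Ndufaf7, Atp5s and Atp5sl), which were counted apart. No measured value entered this rule, but earlier results of these data were known when it was chosen.

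The tissue was the colonic epithelium of a single untreated wild-type C57Bl6 mouse. It was profiled as 2 libraries of different cells in the same sequencing run, called replicate 1 and replicate 2. Viable cells were mixed with cells of the human leukaemia line K562, which were not analysed here, and were captured on the inDrop platform, where a barcoded droplet marks the RNA of each cell. The labels give neither age nor sex. Each deposited value is a count of unique molecular identifiers (UMIs), random tags that let copies of the same captured molecule be counted once. Replicate 1 held 1738 barcodes with 8602490 UMIs and replicate 2 held 664 barcodes with 3951918 UMIs. Both came from 1 animal, so no p-value below covers a spread between animals, and n is 2 libraries throughout. The main fit takes out the difference between the libraries that all classes share. Its p-values cover only how differences between classes vary from library to library, which may be technical.

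Oxidative phosphorylation moves electrons from NADH and succinate through complexes I, II, III and IV to oxygen, and the proton gradient built on the way drives ATP synthase. All subunits of complex II are encoded in the nucleus, whereas complexes I, III, IV and V each combine nuclear subunits with a few made inside the mitochondrion from its own DNA. Mitochondrial messages are cut from long transcripts that span the whole circular genome, so their levels depend on processing and stability as well as on transcription. The surface colonocyte is known for oxidising butyrate made by gut bacteria.

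Cells were sorted into classes by clustering on genes that did not include any of the 105. The colonocyte-like class held 404 cells in replicate 1 and 133 in replicate 2, the goblet-like class 301 and 72, and the deep crypt secretory-like class 262 and 82. The stem/cycling class held 150 and 47 cells and the cycling-like class 95 and 37. Colonocyte markers summed to 43570 and 33704 CPM (counts per 1e+06 UMIs of the class) in colonocyte-like cells of replicates 1 and 2, and goblet markers to 177103 and 157267 CPM in goblet-like cells. The stem/cycling name rests on a thin basis, since its stem markers summed to 988 and 917 CPM, against 1322 and 918 CPM in the cycling-like class. Goblet markers reached 2020 and 1761 CPM in colonocyte-like cells and 37589 and 33354 CPM in deep crypt secretory-like cells, and colonocyte markers 12484 and 11795 CPM in goblet-like cells. Cycling-like cells held goblet markers at 9053 and 13965 CPM and deep crypt secretory markers at 2830 and 4635 CPM, and their cluster also met the marker rule for the deep crypt secretory name (score 1.53). The part of other cells' RNA in the values below was not tested. T cell, macrophage, fibroblast, endothelial and smooth muscle markers each summed to at most 66 CPM in all 5 classes. Higher sums were seen in replicate 2 for enteroendocrine markers, 152 CPM in deep crypt secretory-like cells, and tuft markers, 144 CPM in goblet-like cells. Of the 8 defining markers of cycling cells 7 were among the genes listed for both libraries. Each of these 7, and each defining marker of colonocytes and goblet cells, had a UMI in every class.

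Transcripts of these genes were abundant, and the mitochondrial ones differed between the libraries. The 13 mitochondrially encoded genes took 5.62% of all UMIs in replicate 1 (exact 95% interval 5.60% to 5.63%) and 10.6% in replicate 2 (10.5% to 10.6%). The 83 nuclear-encoded subunits took 3.42% (3.41% to 3.43%) and 3.07% (3.06% to 3.09%). These intervals cover counting error only. Among the mitochondrial genes mt-Co2, a subunit of complex IV that receives electrons from cytochrome c, had the most UMIs, 94211 and 83439. The 10 nuclear-encoded genes with the most UMIs were Cox8a, Cox7c, Cox6a1, Cox4i1, Cox5a, Atp5a1, Cox6b1, Atp5g3, Uqcrb and Cox6c, of which 7 encode complex IV. Cox8a had 20232 UMIs in replicate 1 and 7415 in replicate 2. The method counts molecules at their 3′ ends, so no value was divided by transcript length, and levels of different genes were not ranked beyond their UMI counts.

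Of the 105 genes 5 stayed under the minimum of 20 UMIs and were not tested. They were Cox4i2, Cox7b2, Cox8b, Cox8c and Ndufa4l2, with 3, 3, 2, 11 and 5 UMIs over both libraries. All are alternative forms of a subunit that a more abundant gene also encodes. For subunit 4, Cox4i1 had 12070 UMIs in replicate 1 and 4683 in replicate 2. The other 100 genes were tested among 8059 genes.

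**Figure D1:**
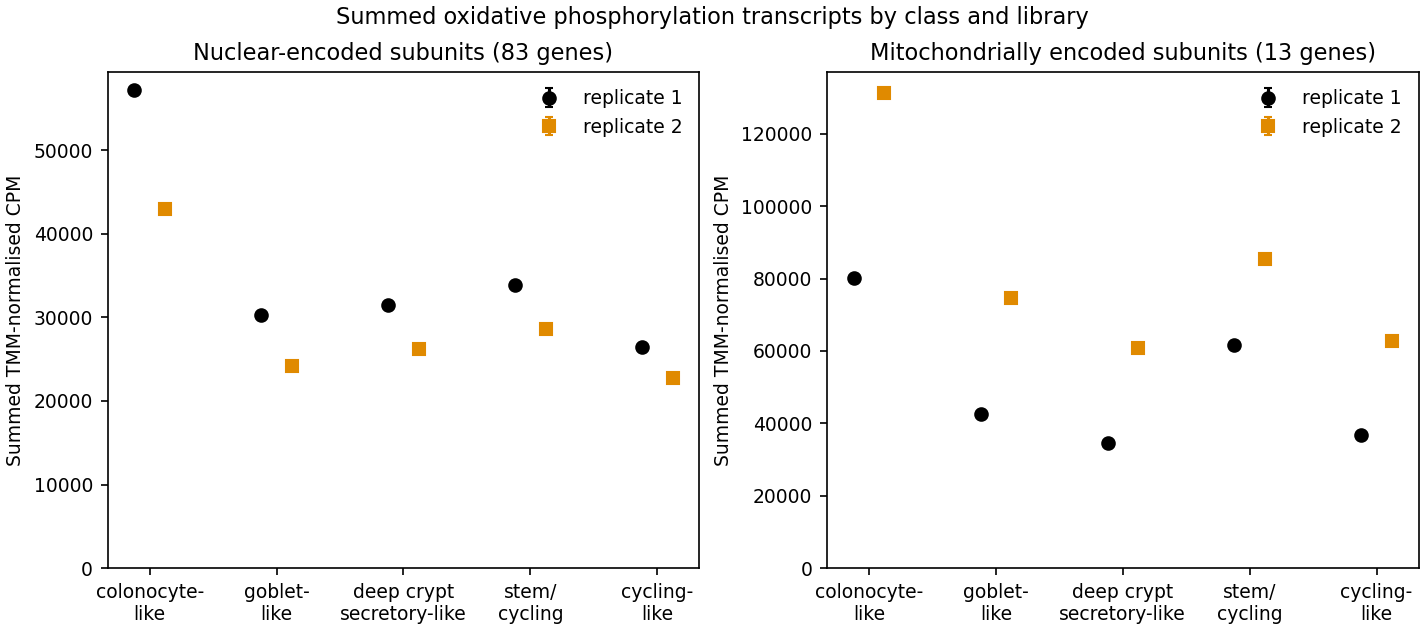
Summed TMM-normalised CPM (vertical axes) of the 83 nuclear-encoded (left) and 13 mitochondrially encoded (right) subunits in the 5 epithelial classes, one point per library; bars give the 95% counting interval and are smaller than the points. In each library the colonocyte-like class is highest in both panels, and replicate 2 lies above replicate 1 in the right panel and below it in the left panel.

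Both gene sets were highest in colonocyte-like cells. After TMM scaling, which sets the libraries to a common level over most genes, the nuclear-encoded subunits summed to 57209 CPM in colonocyte-like cells of replicate 1 and 42989 CPM in replicate 2. The other classes lay between 26468 CPM (cycling-like) and 33924 CPM (stem/cycling) in replicate 1, and between 22760 and 28546 CPM in replicate 2, in the same 2 classes. The mitochondrially encoded genes summed to 80031 and 131369 CPM in colonocyte-like cells. The next highest class was stem/cycling, with 61748 and 85344 CPM, and the lowest was the deep crypt secretory-like class, with 34608 and 60842 CPM. With TMM the highest and the lowest class of each set were the same in both libraries. Fewer molecules per cell of a gene and fewer cells that use it cannot be told apart in such sums.

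The order depended in part on the scaling. As plain shares of UMIs, the mitochondrial genes took 6.10% of colonocyte-like and 6.76% of stem/cycling UMIs in replicate 1, and 11.6% and 10.3% in replicate 2, so that the order of these 2 classes differed between the libraries. The lowest class also differed. Goblet-like cells gave 3.45% and deep crypt secretory-like cells 3.53% in replicate 1, against 6.79% and 6.73% in replicate 2. The nuclear-encoded subunits took 4.36% and 3.81% of colonocyte-like UMIs, against 3.71% and 3.46% in stem/cycling cells. The clusters joined in the colonocyte-like class differed in this share, and the cluster led by Aqp8 and Car4 gave 3.94% and 3.45%. Without TMM the median log2 fold change of all genes was -0.31 in colonocyte-like cells against the other classes, -0.26 in goblet-like, 0.18 in deep crypt secretory-like, 0.21 in stem/cycling and 0.27 in cycling-like cells. For colonocyte-like against stem/cycling cells it was -0.37. With TMM these medians lay between -0.04 and 0.12. Counts are given with TMM, and for the whole nuclear-encoded and mitochondrially encoded sets also without.

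Each class was compared with the mean of the other 4 in a single edgeR quasi-likelihood fit with Benjamini-Hochberg adjustment over all 8059 genes, and a gene was called at an adjusted p under 0.05. In colonocyte-like cells 67 of the 78 tested nuclear-encoded subunits were higher and 3 were lower, with a median log2 fold change of 0.74. Of all genes tested, 22.5% were called higher and 18.1% lower, with a median of 0.05. Of the 13 mitochondrially encoded genes 12 were higher, with a median of 0.83. Without TMM, 46 nuclear-encoded subunits were higher and 4 lower, and 11 mitochondrially encoded genes were higher. Without the library as a block edgeR called 53 and 11 genes of the sets here, but in each other class against the rest at most 9 nuclear-encoded genes and 0 mitochondrially encoded ones, with 1 of the mitochondrial genes at an unadjusted p under 0.05. Within each library the colonocyte-like class lay above every other class for 62 of the 78 nuclear-encoded and 11 of the 13 mitochondrially encoded genes, against 19.2% of all genes.

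**Figure D2:**
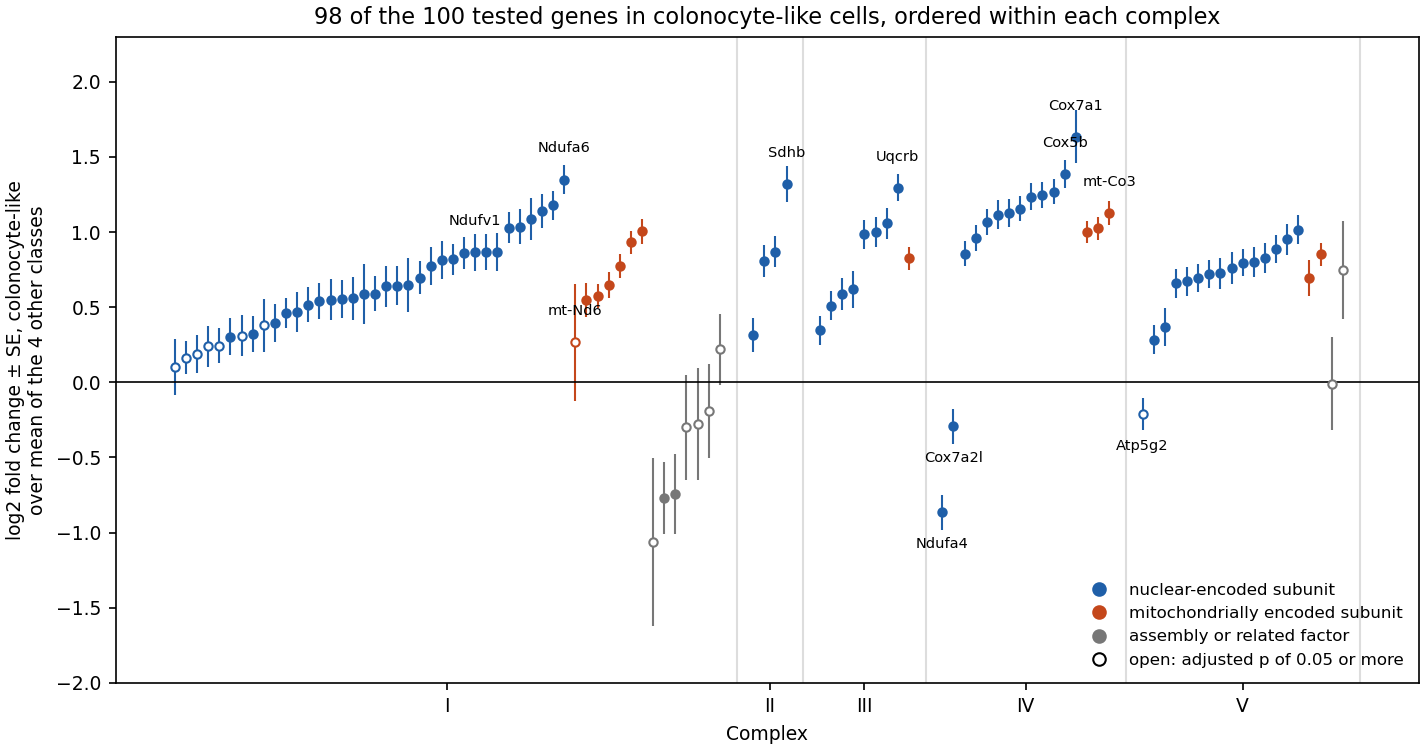
Log2 fold change with its standard error (vertical axis) of colonocyte-like cells over the mean of the other 4 classes, for the tested genes grouped by complex and ordered by size within each kind. Filled points were called and open points were not; Cox6a2 and Cox6b2 are left out because some classes held none or few of their UMIs. Most subunits lie above 0 in every complex, Ndufa4 and Cox7a2l lie below it, and the grey assembly factors scatter around or below it.

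Complex IV, cytochrome c oxidase, had the highest median of the complexes. Of its 15 tested nuclear-encoded genes 12 were higher in colonocyte-like cells and 3 lower, with a median log2 fold change of 1.13. The 3 mitochondrially encoded subunits, which form the catalytic core, rose by 1.02 (mt-Co1), 1.00 (mt-Co2) and 1.13 (mt-Co3). Cox5b, a nuclear-encoded zinc-binding subunit, stood at 1126 and 952 normalised CPM in colonocyte-like cells of replicates 1 and 2, against a mean of 410 and 397 in the other classes. It was higher in both libraries, without overlap between the classes, at a log2 fold change of 1.38 ± 0.09 (standard error). Cox6a1, Cox5a and Cox6c, all among the 10 most abundant, rose by 1.27, 1.25 and 1.24.

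Complex I, the NADH dehydrogenase, had 29 of 36 tested nuclear-encoded genes higher, with a median of 0.59. Of the 7 genes for its catalytic core 5 were higher, and of the 29 accessory subunits 24. Ndufa6, an accessory subunit, stood at 801 and 658 normalised CPM in colonocyte-like cells, against 304 and 296 in the mean of the other classes, a log2 fold change of 1.35 ± 0.10. Of the 7 mitochondrially encoded subunits of complex I 6 were higher, from 0.55 for mt-Nd4l to 1.01 for mt-Nd3. The exception was mt-Nd6, encoded on the opposite strand to the others and counted at 7.74 and 14.5 CPM against 7.54 and 10.05.

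Complexes II, III and V were higher almost throughout. All 4 subunits of succinate dehydrogenase (complex II) were called higher, led by its iron-sulphur protein Sdhb at 324 and 294 normalised CPM against 137 and 113 (1.32 ± 0.12). All 8 nuclear-encoded subunits of complex III were higher, with a median of 0.80, and Uqcrb, a subunit near its quinone site, stood at 2086 and 1296 CPM against 799 and 577 (1.30 ± 0.09). The cytochrome b gene mt-Cytb, the mitochondrial member of the same complex, rose by 0.83 ± 0.08. Of the 15 tested nuclear-encoded subunits of ATP synthase 14 were higher, with a median of 0.72, and mt-Atp6 and mt-Atp8 rose by 0.85 and 0.69. The messages of mt-Atp8 and mt-Atp6 overlap, as do those of mt-Nd4l and mt-Nd4, so counts within these pairs are uncertain.

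The 3 nuclear-encoded genes called lower in colonocyte-like cells all belong to complex IV. Ndufa4, first described in complex I and now placed in complex IV, stood at 294 and 217 normalised CPM in colonocyte-like cells, against 579 and 372 in the mean of the other classes. It lay below every other class in each library, as 12.6% of all genes did, at a log2 fold change of -0.87 ± 0.11. Cox7a2l, which helps complexes III and IV associate and is encoded in C57BL/6 mice in a shortened form, stood at 258 and 163 CPM against 296 and 239 (-0.29 ± 0.12). This call was lost under 7 of the alternatives, among them DESeq2, while Ndufa4 was called lower under every alternative with a test. Cox6b2, the testis isoform of subunit 6B, had 0 UMIs in colonocyte-like cells and 23 in the other classes together. Against a floor of 3 UMIs over the class this was at least 4.30-fold lower on the CPM scale.

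Tissue-specific isoforms of complex IV differed in direction from one another. Cox7a1, known as the heart and muscle isoform of subunit 7A, stood at 131 and 98.6 normalised CPM in colonocyte-like cells of replicates 1 and 2, and at 119 and 84.9 CPM in goblet-like cells. Deep crypt secretory-like cells held 38.1 and 58.1 CPM, stem/cycling cells 18.6 and 15.5, and cycling-like cells 26.9 and 19.5. It was called higher in colonocyte-like (1.63 ± 0.18) and goblet-like cells (1.44 ± 0.19) and lower in stem/cycling (-1.79 ± 0.30) and cycling-like cells (-1.22 ± 0.29), each against the other 4 classes. A UMI of Cox7a1 was found in 38.4% and 42.9% of colonocyte-like cells at median depths of 6065 and 8153 UMIs. In T cell-like cells it was found in 3.64% and 0% (0 of 7 cells), at median depths of 1668 and 2144. That group was mixed in replicate 1, with B or plasma cell markers at 52119 CPM and T cell markers at 19789 CPM. In replicate 2 these lists summed to 68.9 and 15906 CPM.

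Other isoforms were rare. Cox6a2, the heart and muscle isoform of subunit 6A, had 31 of its 39 UMIs over the 5 classes in colonocyte-like cells, a ratio of CPM to the other classes of 6.92 (95% counting interval 3.11 to 17.4). Replicate 2 gave 22 of these 31 UMIs. Deep crypt secretory-like cells had 0 UMIs of it, at least 3.36-fold lower than the other classes. Cox6b2, by contrast, had 10 UMIs in stem/cycling and 9 in cycling-like cells, ratios of 5.67 (2.22 to 13.99) and 5.80 (2.21 to 14.4). In every class and library Cox6a1 supplied at least 98.9% of the UMIs of the 6A pair and Cox6b1 at least 98.0% of those of the 6B pair.

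**Figure D3:**
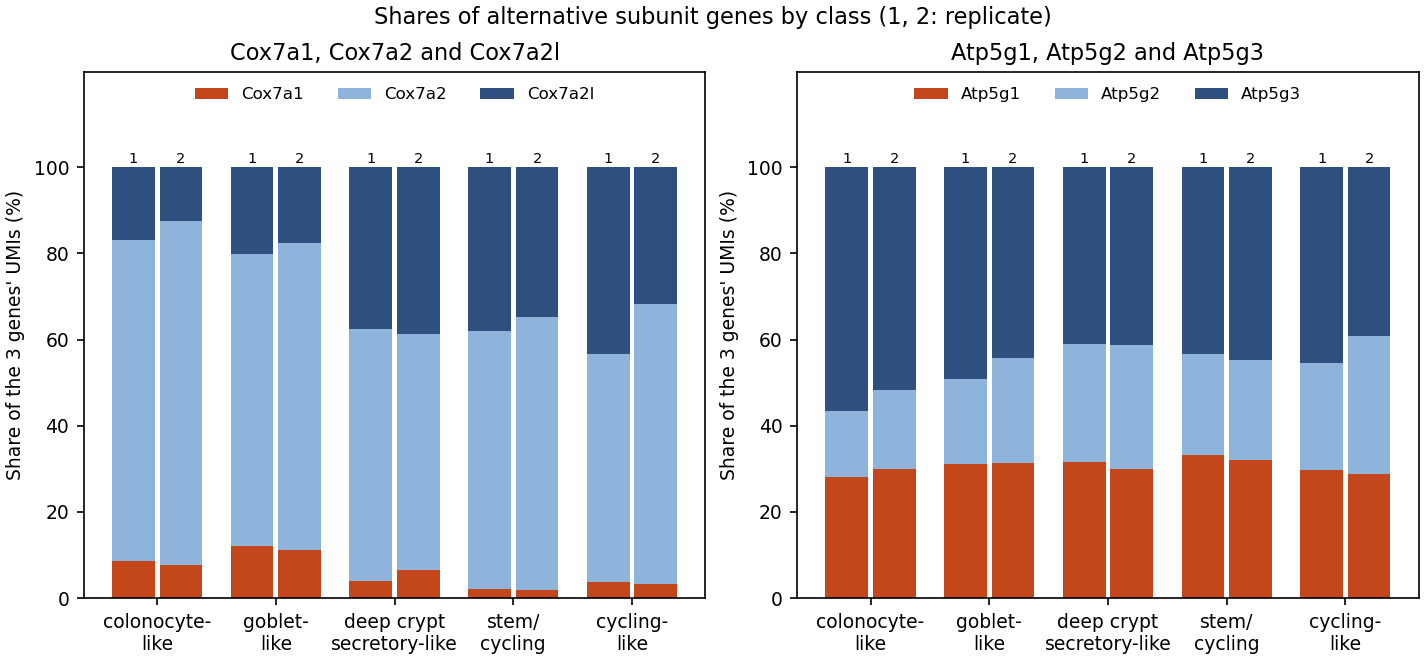
Share (vertical axis, %) of each gene in the UMIs of the 3 subunit 7A genes (left) and of the 3 genes for the c subunit of ATP synthase (right), by class and by library (1 and 2 above the bars). Cox7a1 takes its largest shares in goblet-like and colonocyte-like cells, and Atp5g2 its smallest share in colonocyte-like cells.

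The 3 genes of the c ring of ATP synthase, Atp5g1, Atp5g2 and Atp5g3, encode the same mature protein behind different import signals, and they were used in different proportions. Atp5g2 made up 15.3% (exact 95% interval 14.4% to 16.2%) and 18.4% (16.8% to 20.1%) of their UMIs in colonocyte-like cells of replicates 1 and 2. In deep crypt secretory-like cells it made up 27.4% (26.0% to 28.9%) and 28.9% (26.5% to 31.4%). Atp5g3 took the largest share in every class, from 39.2% in cycling-like cells of replicate 2 to 56.6% in colonocyte-like cells of replicate 1. In the fit over all genes Atp5g2 was not called in colonocyte-like cells (-0.21 ± 0.10) and was called higher in deep crypt secretory-like cells (0.41 ± 0.10). The coding sequences of these genes are alike in part, so reads may have been divided between them.

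The colonocyte-like and goblet-like classes each joined clusters that differed in the nuclear-encoded share. The cluster led by Gsdmc4 and including the monocarboxylate transporter Slc16a1 gave 4.80% and 4.32% of its UMIs to nuclear-encoded subunits in replicates 1 and 2, at median depths of 6201 and 9410 UMIs. It held 196 and 50 cells, and its colonocyte name is weakly based, with no colonocyte marker among its 15 leading genes. Its colonocyte score was 1.66, against 2.81 in the cluster described next and 1.92 in a shallow cluster left without a name. The cluster led by the water channel Aqp8 and the carbonic anhydrase Car4 gave 3.94% and 3.45%, at 6025 and 7571 UMIs. Stem/cycling cells gave 3.71% and 3.46%, so in plain shares only the Slc16a1 cluster lay above them in both libraries. Shares of the mitochondrial genes were 6.09% and 10.5% in the Slc16a1 cluster and 6.12% and 12.5% in the Aqp8 cluster. Only the nuclear-encoded share was higher in the Slc16a1 cluster in both libraries, by more than its counting error, and no test over libraries was made of this difference. Of the goblet-like clusters, the one led by Clca1 and Zg16 gave 1.97% and 1.87% of its UMIs to nuclear-encoded subunits at median depths of 4162 and 7228 UMIs. The one led by Scin and Sval1 gave 2.99% and 2.64%, at 6355 and 9426 UMIs, close to the 2.97% and 2.72% of cycling-like cells.

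The direct comparison of colonocyte-like with stem/cycling cells gave the same direction for nuclear-encoded genes under TMM scaling, and a mixed one without it. With TMM, 52 nuclear-encoded subunits were called higher than in stem/cycling cells and 3 lower, against 17.1% and 13.4% of all genes, with a median log2 fold change of 0.53. Without TMM, 23 were higher and 13 lower, with a median of 0.04. Cox7a1 had the largest log2 fold change of the 78 genes, 2.74 ± 0.30, and those of Uqcrb and Cox6b1 were 1.36 ± 0.13 and 1.18 ± 0.12. Of the mitochondrial genes 8 were higher with TMM (median 0.37), whereas 1 was higher and 2 lower without it (median -0.11). The core subunit gene mt-Co1 was higher with TMM (0.94 ± 0.10), at 12009 and 22174 normalised CPM in colonocyte-like cells against 6633 and 10873 in stem/cycling cells. In contrast, mt-Nd2 stood at 5706 and 8904 CPM against 6055 and 8161, and its log2 fold change of 0.02 ± 0.11 turned to -0.47 without TMM.

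**Figure D4:**
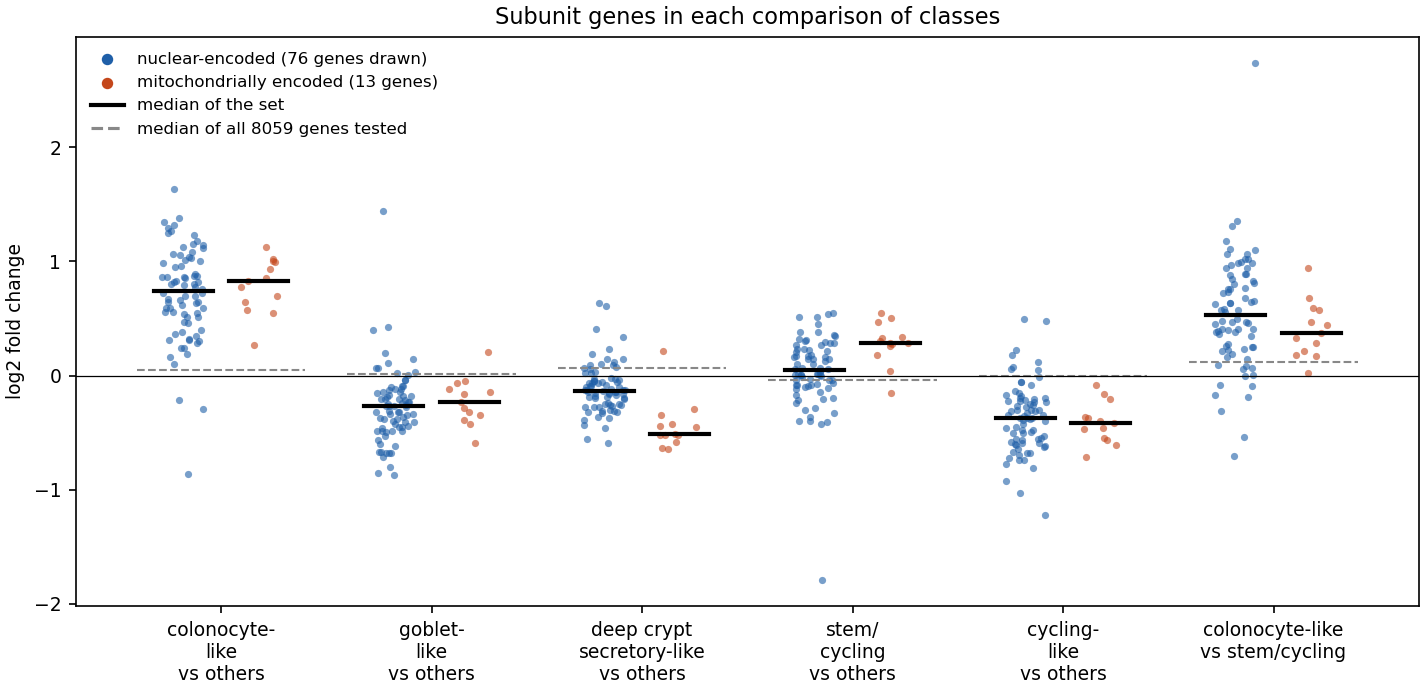
Log2 fold change (vertical axis) of each nuclear-encoded (blue, without Cox6a2 and Cox6b2) and mitochondrially encoded (orange) subunit gene in each comparison; black bars are the medians of the sets and dashed lines those of all genes tested, all with TMM scaling. Both sets lie above the dashed line in colonocyte-like cells and below it in goblet-like and cycling-like cells, while in stem/cycling cells the mitochondrial median is 0.29 and the nuclear-encoded one 0.05.

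Goblet-like cells, which make and secrete mucus, had lower levels of many subunits than the mean of the other 4 classes. Here and below, that mean includes the colonocyte-like class, which was highest in both sets with TMM. The nuclear-encoded sum of goblet-like cells with TMM lay between those of cycling-like and stem/cycling cells in each library. Their mitochondrial sum lay above that of deep crypt secretory-like cells. Of the nuclear-encoded genes 35 were lower and 3 higher, against 9.32% and 12.5% of all genes, with a median log2 fold change of -0.27. The core complex I subunit Ndufs3 stood at 28.2 and 21.2 normalised CPM in goblet-like cells against 47.2 and 50.1 in the mean of the other classes, and fell by 0.87 ± 0.26 on the log2 scale. Those higher were Cox7a1, Ndufa6 (0.43 ± 0.11) and Atp5e, the epsilon subunit of ATP synthase (0.40 ± 0.13). Among the mitochondrial genes 6 were lower, led by mt-Nd2 (-0.59 ± 0.09), and mt-Co1 was higher (0.21 ± 0.08), at 7382 and 14625 CPM against 7076 and 13104. Within each library 20 nuclear-encoded genes lay below every other class, against 6.75% of all genes. Without TMM the value of mt-Co1 was -0.06, and 65 nuclear-encoded genes were lower and 1 higher, while 10 mitochondrial genes were lower. With barcodes over 10% mitochondrial left out, 1 mitochondrial gene was lower and 1 higher. This cut, here and below, selects cells by the quantity compared and fell unevenly on the classes. From replicates 1 and 2 it removed 15 of 301 and 9 of 72 goblet-like cells. Of colonocyte-like cells it removed 58 of 404 and 80 of 133. Calls lost under it therefore do not decide whether the classes differ.

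Deep crypt secretory-like cells, marked by Reg4 and known as a niche for colonic stem cells, had lower levels of most mitochondrially encoded genes. Of the 13 mitochondrial genes 11 were lower, against 7.61% of all genes, with a median of -0.51, and the same number was lower without TMM, but 6 when barcodes over 10% mitochondrial were left out. The cytochrome c oxidase genes mt-Co3 and mt-Co2 fell by 0.64 ± 0.09 and 0.64 ± 0.08 on the log2 scale. Of the nuclear-encoded genes 14 were lower and 3 higher, against 10.7% of all genes called higher, with a median of -0.13, and without TMM 4 were lower and 3 higher. Colonocyte-like cells enter the mean compared here. The nuclear-encoded sum of deep crypt secretory-like cells with TMM lay between those of cycling-like and stem/cycling cells in each library. The catalytic subunits of complex II were among the genes called lower, Sdha with 232 and 191 normalised CPM against 363 and 284 (-0.55 ± 0.12) and Sdhb (-0.59 ± 0.15). The 3 higher genes were Cox7a2l (0.64 ± 0.11), Ndufa4 (0.61 ± 0.10) and Atp5g2 (0.41 ± 0.10), of which Ndufa4 and Cox7a2l were lower in colonocyte-like cells. These comparisons share the same 10 sums of cells, so the opposite directions are not independent of each other.

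Stem/cycling cells had higher levels of many mitochondrially encoded genes. Of the mitochondrial genes 8 were higher, against 7.31% of all genes, with a median of 0.29, led by mt-Nd2 (0.55 ± 0.08), mt-Nd4 (0.51 ± 0.08) and mt-Cytb (0.47 ± 0.08). When barcodes with over 10% of their UMIs from mitochondrial DNA were left out, 1 was higher and 1 lower. That cut, made on the quantity compared, removed 33 of 150 and 21 of 47 stem/cycling cells in replicates 1 and 2. Of the nuclear-encoded genes 11 were higher and 5 lower, against 8.08% of all genes called lower, with a median of 0.05. Ndufa10, an accessory subunit of complex I, stood at 188 and 159 normalised CPM against 135 and 109 (0.55 ± 0.15). Cox6b1 and Cox8a, among the most abundant subunit genes of complex IV, were lower by 0.40 ± 0.10 and 0.33 ± 0.09. Without TMM, 38 nuclear-encoded genes were higher and 1 lower and 11 mitochondrial genes were higher, and without the removal of doublets 36 were higher and 1 lower.

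Cycling-like cells, led by the mitotic genes Top2a and Ube2c, had the lowest summed level of the nuclear-encoded set with TMM, although their plain share, 2.97% and 2.72%, was above the 2.46% and 2.20% of goblet-like cells. Of these genes 40 were lower and 2 higher, against 8.88% and 11.2% of all genes, with a median of -0.37. Within each library 32 lay below every other class, against 7.80% of all genes. Complex IV again led, with 11 of 15 lower and a median of -0.67. Cox7a2, the ubiquitous isoform of subunit 7A, stood at 369 and 377 normalised CPM in cycling-like cells against 718 and 648 in the mean of the other classes (-0.81 ± 0.12). The 2 higher genes were Ndufa4, with 674 and 416 CPM against 484 and 322 (0.49 ± 0.11), and Cox6b2. Of the mitochondrial genes 10 were lower, with a median of -0.42. With barcodes over 10% mitochondrial left out 6 were lower, and at a clustering resolution of 0.5, where stem/cycling cells joined this class, 1 was lower and 1 higher. Without TMM, 19 nuclear-encoded genes were lower and 6 higher, and 5 mitochondrial genes were lower.

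Genes that assemble the complexes were called in colonocyte-like cells about as often as genes at large, of which 22.5% were higher and 18.1% lower. Of the 9 assembly and related factors caught by name, 2 were lower in colonocyte-like cells, the complex I assembly factors Ndufaf4 (-0.77 ± 0.24) and Ndufaf7 (-0.74 ± 0.26), and the other 7 were not called. Of 35 further assembly factors 6 were higher and 8 lower, with a median of -0.25. Ecsit, a complex I assembly factor that also acts in immune signalling, was at 83.0 and 113 normalised CPM in colonocyte-like cells against 8.88 and 15.9 in the mean of the other classes, a log2 fold change of 3.09 ± 0.22. Sdhaf1, which helps assemble complex II, was at 6.70 and 4.15 CPM against 26.2 and 18.4 (-1.95 ± 0.37).

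Most partners of the chain were higher in colonocyte-like cells, against 22.5% of all genes higher and 18.1% lower. Of 17 carriers and transport partners 12 were higher and 1 was lower, with a median of 0.79. Cycs, the cytochrome c that carries electrons to complex IV, was at 787 and 832 normalised CPM against 219 and 236 (1.85 ± 0.10). Higd1a, a small inner membrane protein of complex IV, rose by 2.20 ± 0.11, and the adenine nucleotide carrier gene Slc25a4, the muscle and heart isoform, fell by 1.34 ± 0.36 on the log2 scale. Of 13 citric acid cycle enzymes 7 were higher, led by citrate synthase (Cs) at 1536 and 988 CPM against 367 and 282 (1.97 ± 0.09). Of 25 tested genes for mitochondrial genome expression and biogenesis 4 were higher, a share near that of all genes, and 10 lower, with a median of -0.35. These lists were not counted without TMM. Esrra, a nuclear receptor that drives mitochondrial genes, was higher (1.33 ± 0.18), and Polrmt, the mitochondrial RNA polymerase, was lower (-1.48 ± 0.38). Tfb2m, which helps Polrmt start transcription, had 1 UMI in colonocyte-like cells and 37 in the other classes.

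**Figure D5:**
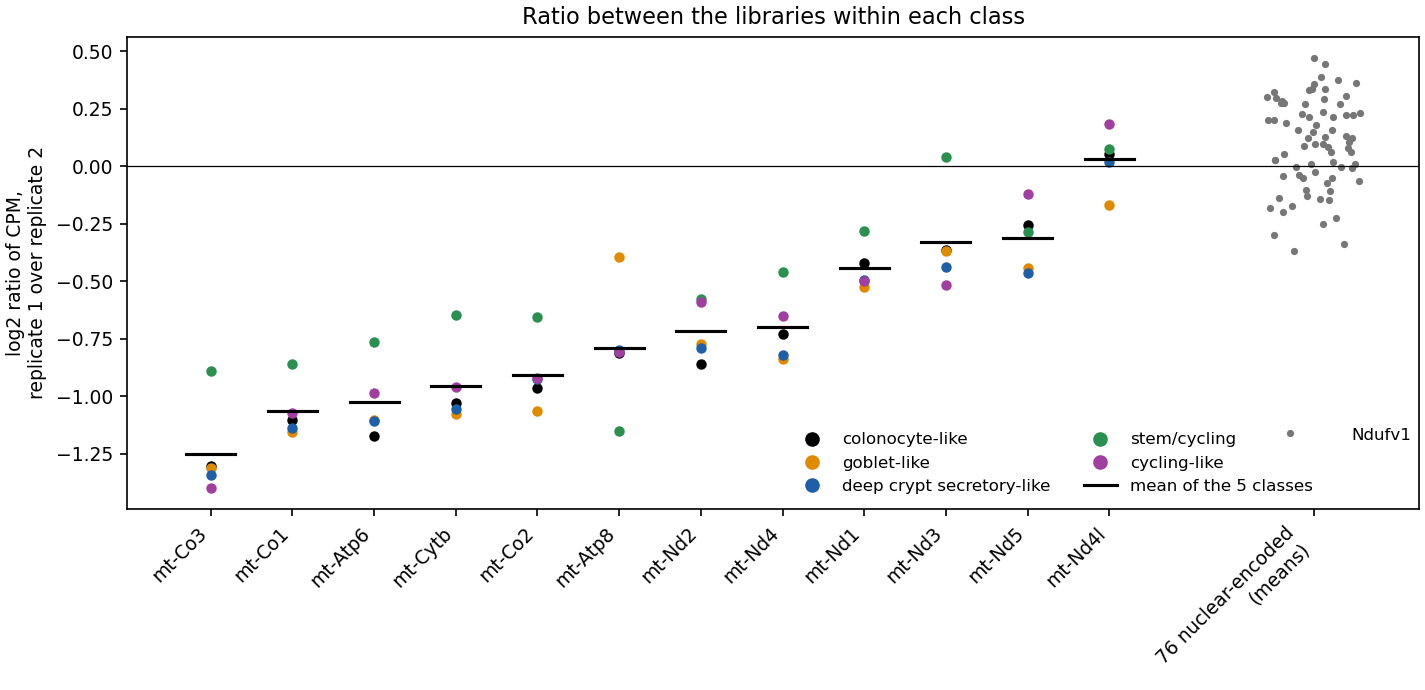
Log2 ratio of CPM in replicate 1 over replicate 2 (vertical axis) of the 12 mitochondrially encoded genes with at least 100 UMIs over the sums, in each class (coloured points) and as the mean of the 5 classes (black bars), and the class means of 76 nuclear-encoded subunits (grey). The mitochondrial genes range from about 0 for mt-Nd4l to below -1 for mt-Co3, and Ndufv1 lies apart from the other nuclear-encoded genes.

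Between the libraries the mitochondrial set differed more than the nuclear-encoded set. Within classes, the mitochondrial genes took a smaller share of UMIs in replicate 1 than in replicate 2, with ratios of 0.524 in colonocyte-like, 0.508 in goblet-like, 0.524 in deep crypt secretory-like, 0.654 in stem/cycling and 0.552 in cycling-like cells. For the nuclear-encoded set these ratios lay between 1.07 in stem/cycling and 1.14 in colonocyte-like cells, and between 1.03 and 1.08 over UMIs of genes outside mitochondrial DNA. Counted per 100 mitochondrial UMIs, there were 71.5 nuclear-encoded UMIs in colonocyte-like cells of replicate 1 and 32.7 in replicate 2. The highest values were in deep crypt secretory-like cells, 90.9 and 43.2. Both libraries belong to 1 group, so these ratios are descriptions with no test. Median depth per cell lay between 5158 and 6850 UMIs over the 5 classes of replicate 1 and between 7190 and 9041 UMIs in replicate 2, and its part in the difference was not tested.

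The difference between the libraries was not alike for all mitochondrial genes. Among 9369 genes with at least 100 UMIs over the sums, 8 of the 12 mitochondrial ones averaged at least 1.5-fold lower in replicate 1 over the 5 classes, against 10.5% of all genes, and 10 were lower in every class, against 12.2%. Ratios of replicate 1 to replicate 2 were 0.421 for mt-Co3, 0.478 for mt-Co1 and 0.491 for mt-Atp6. They were 0.735 for mt-Nd1, 0.796 for mt-Nd3, 0.805 for mt-Nd5 and 1.02 for mt-Nd4l. Of all mitochondrial UMIs mt-Nd1 took 10.3% to 11.3% over the classes in replicate 1 and 7.53% to 8.61% in replicate 2, while the mean share of mt-Co3 was 6.92% and 9.03%.

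A nuclear-encoded gene, singled out after its values were seen, differed between the libraries by as much as mitochondrial genes did. Ndufv1, the core complex I subunit that binds FMN and takes electrons from NADH, had a ratio of replicate 1 to replicate 2 of 0.447. It had 973 UMIs in replicate 1 and 1204 in replicate 2, although replicate 2 held fewer cells, and it was lower in replicate 1 in all 5 classes. In colonocyte-like cells it stood at 159 and 374 normalised CPM, against 97.4 and 189 in the mean of the other classes, and its log2 fold change between classes was 0.87 ± 0.12. No other of the 76 nuclear-encoded genes differed by 1.5-fold. Of these 76 genes 28 were higher in replicate 1 in every class, against 10.1% of all genes, with a median ratio of 1.07.

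Mitochondrial share varied widely between single barcodes. In colonocyte-like cells the mitochondrial share ran from 1.18% to 35.8% with a median of 5.47% in replicate 1, and from 0.230% to 41.5% with a median of 11.01% in replicate 2. The nuclear-encoded share of the remaining UMIs had medians of 4.56% and 4.12%, and ran from 1.33% to 7.78% and from 1.74% to 7.72%. Across barcodes of this class, Spearman's correlation of the 2 shares was -0.11 in replicate 1 and 0.01 in replicate 2, and over all 5 classes and both libraries it ran from -0.11 to 0.33. The correlation of the mitochondrial share with UMIs per barcode was -0.37 and -0.40 in colonocyte-like cells of replicates 1 and 2. Over all 5 classes and both libraries it ran from -0.40 to 0.03. These are descriptions over cells of shared libraries and depth. Over 10% of UMIs were mitochondrial in 16.7% of all barcodes of replicate 1 and in 42.3% of those of replicate 2.

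Barcodes of 2 shallow clusters without a name entered no class. The first held 167 and 163 barcodes, 25.9% of those kept in replicate 2, and gave 7.63% and 10.3% of its UMIs to mitochondrially encoded genes. The second carried the largest mitochondrial share. Replicate 1 gave it 208 barcodes with a median of 1598 UMIs, replicate 2 gave it 87 with a median of 2082 UMIs, and the colonocyte name alone met the marker rule (score 1.92). Its mast cell score was higher (2.99), but too few of those markers were detected in enough of its cells for that name. They summed to 13.1 CPM in replicate 1 and 4253 CPM in replicate 2, where 1 of the 4 markers had no UMI, and their part in its values was not tested. Mitochondrially encoded genes took 20.3% and 34.5% of its UMIs. Nuclear-encoded subunits took 3.85% and 3.07% of its UMIs outside mitochondrial DNA, against 4.65% and 4.31% in colonocyte-like cells. When it was counted as colonocyte-like, 62 nuclear-encoded and 12 mitochondrial genes were higher in that class.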

How the data were processed

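The authors deposited 1 table of raw UMI counts per gene and barcode for each library, with no normalization. Per the submitters' processing notes, builds GRCh38 and GRCm38 were used. Aligner, annotation, strand setting and barcode filter: not given in the sources used here. No barcode failed a minimum of 500 UMIs and 250 genes. Doublet scores from simulated pairs (2 per barcode, 50 neighbours) removed the top 5%, 87 barcodes of replicate 1 and 34 of replicate 2. No barcode profile was identical between the libraries.

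Genes were split by a hash of their names into 12685 for clustering, which hold all markers, and 12819 others, which hold all genes described here. Counts were scaled to 10000 per barcode, and 1500 variable genes and 30 principal components gave a neighbour graph (15 neighbours) that was cut with the Leiden method at resolution 1. Clusters were named from fixed marker lists, under a rule settled after the clusters were seen. UMIs were summed per class and library into 10 sums of at least 10 cells, and edgeR 4.0.16 fitted classes with the library as a block, TMM scaling and a minimum of 20 UMIs. Same-library sums deviated together, with correlations from 0.14 to 0.22. In data simulated for the colonocyte-like comparison, 60% of genes with a true log2 change of 1 and 39.1% of those at -1 were called. So were 8.2% at 0.5, 2.2% at -0.5 and 0% of unchanged genes, among 8049 genes. The simulation used a fixed dispersion and gave all classes the same profile apart from 50 genes per size of change. In the real comparison 3272 of 8059 genes were called, and TMM factors ran from 0.763 to 1.21. The 0% therefore does not carry over to the real data or to errors of scaling. Shares have exact binomial 95% intervals, which cover counting error only.

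Genes named were all mitochondrially encoded ones, the 10 most abundant nuclear-encoded ones, up to 5 called genes with the largest change in each direction of a comparison, alternative isoforms, and up to 4 called genes of each pathway list. The members and lists were chosen with earlier results of these data known. Alternatives covered normalization, test, filter, block, doublets, resolution, depth, mitochondrial UMIs and single libraries. Tools were Python 3.11.15, numpy 2.4.6, scipy 1.17.1, leidenalg 0.10.2, R 4.3.3 and DESeq2 1.42.0.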

Additional observations from a re-analysis of the deposited data

How the results depend on the processing

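Counts of subunit genes called in colonocyte-like cells stayed within 1.5 times of the reported ones under every alternative with a test, from 50 to 72 nuclear-encoded genes (reported 70) and from 11 to 12 mitochondrially encoded genes (reported 12). The other comparisons moved more. Scaling by total UMIs without TMM, and counting the shallow mitochondria-rich cluster as colonocyte-like, were added after seeing the data. Without TMM the nuclear-encoded count was 66 in goblet-like (reported 38), 7 in deep crypt secretory-like (17), 39 in stem/cycling (16) and 25 in cycling-like cells (42), and 36 for colonocyte-like against stem/cycling cells (55). The mitochondrial count was 5 in cycling-like cells (10) and 3 for colonocyte-like against stem/cycling cells (8).

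Without the replicate block, the library being the pairing of the sums, edgeR called 53 nuclear-encoded and 11 mitochondrial genes in colonocyte-like cells. Nuclear-encoded counts were 5 in goblet-like, 0 in deep crypt secretory-like, 2 in stem/cycling and 9 in cycling-like cells, and 24 for colonocyte-like against stem/cycling cells. The mitochondrial count was 0 in each of these 5 comparisons. At an unadjusted p under 0.05 the nuclear-encoded counts were 17, 6, 6, 30 and 37 and the mitochondrial ones 1 in each. DESeq2 with the block called 24 nuclear-encoded genes in goblet-like cells.

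With barcodes over 10% mitochondrial left out, the mitochondrial count was 2 in goblet-like (7), 6 in deep crypt secretory-like (11), 2 in stem/cycling (8) and 6 in cycling-like cells. In deep crypt secretory-like cells 11 nuclear-encoded genes were then called. This cut selects on the mitochondrial share itself, so mitochondrial calls lost under it do not decide whether the classes differ. With the shallow cluster as colonocyte-like, 11 nuclear-encoded genes were called in deep crypt secretory-like and 5 mitochondrial genes in stem/cycling cells. Thinned sums gave 21 nuclear-encoded genes in goblet-like cells. Without the doublet filter 37 were called in stem/cycling cells and 35 for colonocyte-like against stem/cycling cells. At resolution 0.5, 32 nuclear-encoded genes were called in deep crypt secretory-like and 2 mitochondrial genes in cycling-like cells, and the stem/cycling class joined the cycling-like one, so its comparisons gave no value.

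The ratio of replicate 1 to replicate 2 in mitochondrial share (0.528) was 0.531 without the doublet filter, 0.64 without mitochondria-rich barcodes and 0.499 over other UMIs. The nuclear-encoded ratio (1.12) was 1.15 without mitochondria-rich barcodes and 1.06 over other UMIs.

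Of 1600 alternative values of 127 log2 fold changes 1315 counted as unchanged and 15 reversed. A further 166 lost and 23 gained a call, and 81 moved without a test. Unchanged meant the same call, and a change of sign was passed over where neither value was called. Among the unchanged, 81 values without replicate 1 and 92 without replicate 2 had no call. For these a value within 1 standard error also counted as unchanged. Without mitochondria-rich barcodes, stem/cycling values were -0.03 for mt-Atp6, -0.06 for mt-Co2, -0.16 for mt-Co3 and -0.09 for mt-Nd3. Without TMM, colonocyte-like against stem/cycling values were -0.04 for mt-Atp6, -0.2 for mt-Cytb, -0.01 for mt-Nd1, -0.47 for mt-Nd2, -0.27 for mt-Nd4 and -0.11 for mt-Nd5, and mt-Co1 in goblet-like cells was -0.06. At resolution 0.5 cycling-like values were 0.15 for mt-Cytb, 0.37 for mt-Nd2 and 0.13 for mt-Nd4. Without the doublet filter Uqcrb in stem/cycling cells was 0.06. The causes were not tested. With 1 library left out no residual freedom remained, so only values without a test were had. Genes with few UMIs, such as mt-Nd6 with 110, are limited by depth.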
